A study of Mus musculus with 30 samples.

Results

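Erythropoietin and Kit receptor signalling was followed through the transcripts of 10 genes: the receptors *Epor* and *Kit*, the kinase *Jak2*, the transcription factors *Stat5a* and *Stat5b*, the target gene *Pim1*, and the feedback inhibitors *Cish*, *Socs1*, *Socs2* and *Socs3*. They were chosen by symbol, and each matched 1 row of a table of 54532 genes. The cells were MEL cells, a mouse erythroleukemia line in which DMSO starts hemoglobin production. WT cells and cells of a single Abcb10-null clone, made with lentiviral CRISPR/Cas9 against *Abcb10*, which encodes a transporter of the inner mitochondrial membrane, were sequenced at day 0, before DMSO, and at days 2 and 5 in 1.5% DMSO. Each of the 6 groups of genotype and day had 5 libraries, 30 in all. Because the null cells are 1 clone, the effect of the lost gene and other differences between this clone and the WT cells cannot be told apart.

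Erythropoietin binds its receptor on red cell precursors and activates the kinase JAK2, which phosphorylates the receptor and the transcription factors STAT5A and STAT5B. These move to the nucleus and raise a set of target genes, among them *Pim1*, which encodes a survival kinase, and *Cish* and the *Socs* genes, whose proteins bind the receptor or the kinase and dampen the signal. Kit is the receptor of stem cell factor, a tyrosine kinase of early progenitors and mast cells whose expression normally falls as red cell precursors mature.

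Library totals lay between 9906783 and 20157768 counts, and levels are given as CPM, counts relative to the size of the library, scaled over all libraries. *Abcb10* itself was lower in the null libraries at every day, at 74.3 ± 4.82 against 119 ± 5.65 CPM (SD, n = 5) at day 0 and at 212 ± 30.2 against 1223 ± 45.6 CPM at day 5. The summed CPM of 8 erythroid markers rose from a median of 2488 at day 0 to 21038 at day 5 in WT and from 2529 to 7024 in the null cells. Megakaryocyte markers (7 genes) had median sums of 391 CPM in WT and 399.8 in null at day 0, and of 424 and 386 at day 5. Myeloid markers (8 genes) summed to at most 18.4 CPM in any library, and lymphoid markers (6 genes) to at most 6.85 CPM. Mast cell markers (8 genes) summed to between 176 and 208 CPM in the null cells and between 89.9 and 97.6 CPM in WT at day 0. Nearly all of it was *Hdc*, and the sums were at most 5.05 CPM later. *Fcer1a* (2.38 against 0.187 CPM), *Cpa3* (1.42 against 0.412) and *Ms4a2* (0.832 against 0.287) also had higher means in null than in WT at day 0. *Tpsb2*, encoding a mast cell tryptase, was at 3 counts or less in all libraries. These are bulk samples, in which fewer cells of a type and less RNA per cell cannot be told apart.

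The stretches of promoter sequence below belong to *Epor*, *Socs3* and *Cish*. They are shown because they hold 1 of the motifs searched: AGATAA, the letters bound by GATA factors, read here on the opposite strand as TTATCT, or TTCNNNGAA, the letters bound by STAT5, which read the same on both strands. The sequences are from RefSeq on GRCm38.p6, written 5′ to 3′ along the gene's own strand, with the match in capitals; a match describes these letters and does not show that a factor binds there.
Epor: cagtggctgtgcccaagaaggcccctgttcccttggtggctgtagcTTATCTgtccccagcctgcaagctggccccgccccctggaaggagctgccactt
Socs3: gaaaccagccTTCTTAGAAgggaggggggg
Cish: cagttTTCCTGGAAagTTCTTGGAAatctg

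The *Epor* stretch, at chr9:21963577-21963676 on the minus strand, is the 100 bases before the RefSeq start and lies outside both annotated *Epor* transcripts. Its AGATAA match begins 54 bases before the start. The *Socs3* stretch, at chr11:117969501-117969530 on the minus strand, lies before the RefSeq start and within an intron of a longer annotated transcript, and its TTCNNNGAA match begins 154 bases before that start. The *Cish* stretch, at chr9:107296654-107296683 on the plus strand, spans the RefSeq start and lies in an exon of an annotated transcript, outside its coding part. It holds a pair of TTCNNNGAA matches 2 bases apart. Windows of 300 bases, from 250 before to 50 after the start, were given for 9 of the 10 members, *Socs2* having none. Of 32851 such windows of all genes, 8.3% held at least 1 TTCNNNGAA, 0.457% held 2 or more, and 11.2% held AGATAA on either strand. *Cish* and *Socs3* were the only members with TTCNNNGAA in a window, and *Epor* the only member with AGATAA.

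*Kit* had almost no transcript in these cells. The 30 libraries together held 29 *Kit* counts in WT at day 0, 28 in the null cells at day 0, 3 and 14 at day 2, and 20 and 37 at day 5. A count of 3 in the shallowest library was worth 0.311 CPM, and the highest *Kit* value outside a single library was 0.900 CPM. The exception was null replicate 4 at day 5, with 26 counts and 2.70 CPM. *Kit* passed the filter on low counts in no comparison, so no difference between genotypes or days was detectable at this depth. The ligand genes were as scarce: *Epo*, encoding erythropoietin, was at 3 counts or less in all libraries, with 7 counts in total, and *Kitl*, encoding stem cell factor, did not exceed 0.371 CPM.

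*Epor*, on chromosome 9 (21958897 to 21963506, minus strand, GRCm38), was the member with the most transcript per length in WT cells at every day, at 113, 164 and 207 CPM per kb of exon at days 0, 2 and 5. In the null cells it led at day 0 with 115 CPM per kb, and *Pim1* stood above it at days 2 and 5, at 168 against 148 and at 178 against 123 CPM per kb. *Jak2* followed in WT at day 0 with 56.0, then *Stat5b* with 17.2, *Pim1* with 15.4 and *Stat5a* with 11.5 CPM per kb. The inhibitors were far lower before DMSO, from 1.79 CPM per kb for *Socs2* to 0.0722 for *Socs1*.

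**Figure D1:**
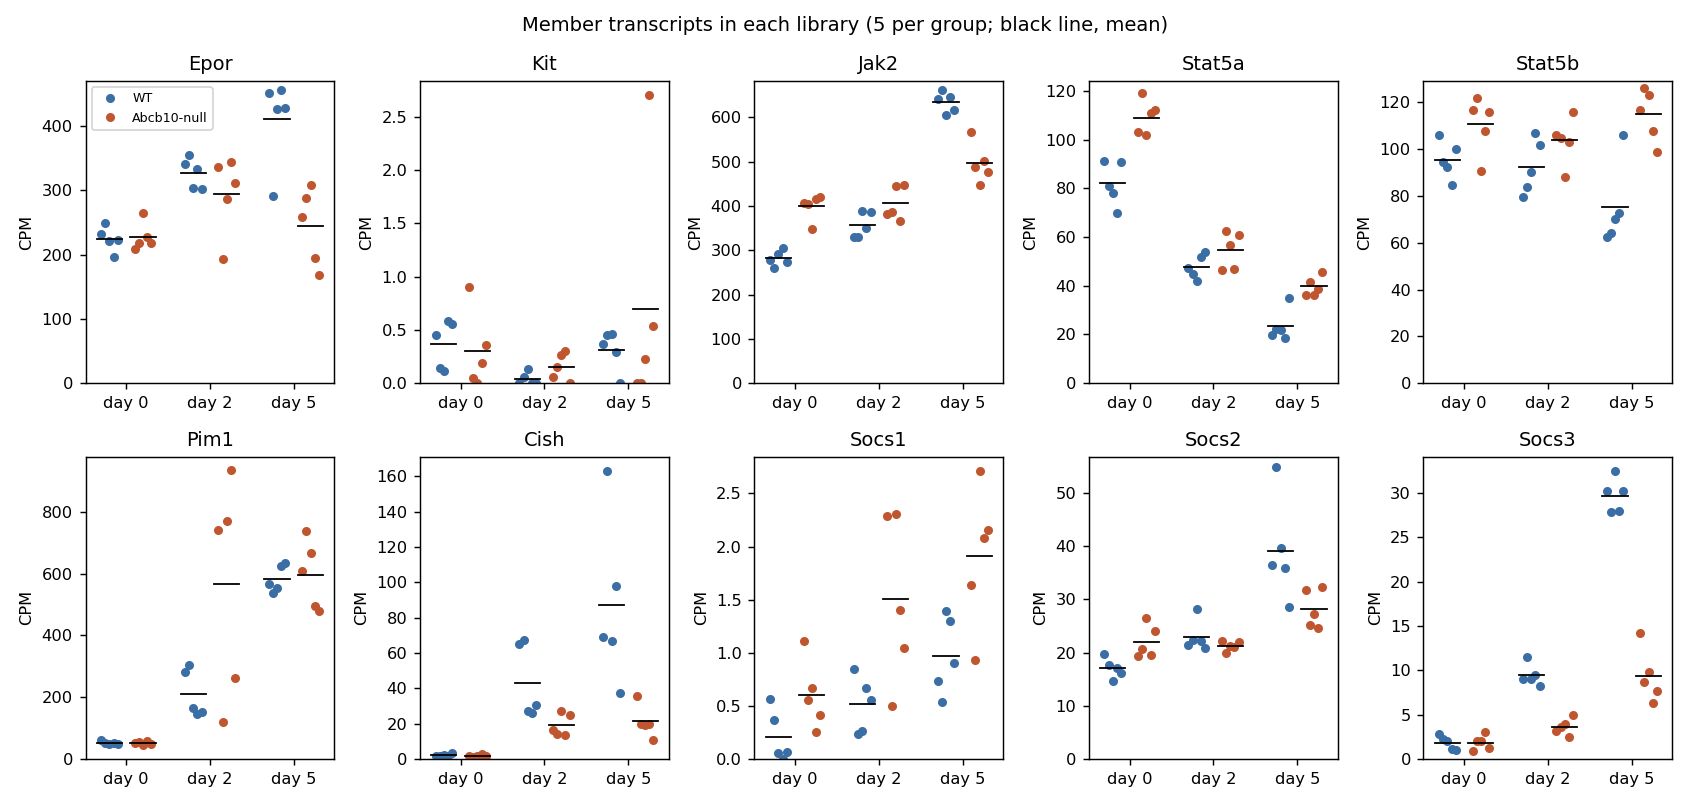
CPM of each of the 10 members (y axis, linear, a scale for each gene) in WT (blue) and Abcb10-null (orange) libraries at days 0, 2 and 5. Points are libraries, 5 in each group, and black lines are means; in WT, Pim1, Cish and Socs3 rise across the days and Stat5a falls, while Kit stays under 1 CPM in all libraries but 1.

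Over 5 days of DMSO *Epor*, *Jak2*, *Pim1*, *Cish*, *Socs2* and *Socs3* rose in the WT cells and *Stat5a* and *Stat5b* fell; *Kit* and *Socs1* were under the filter on low counts. Of the 8 members tested between days 0 and 5, all 8 passed an adjusted p of 0.05 (edgeR quasi-likelihood test, here and throughout), 6 higher and 2 lower, where 71.2% of all genes tested passed. The members' median log2 fold change was 1.18 and that of all genes 0.023. Between days 0 and 2, 7 of 8 passed, 6 higher and 1 lower, against 62.2% of all genes. From day 2 to day 5, 5 of 9 passed, 4 higher and 1 lower, against 33.4% of all genes.

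*Cish*, whose protein docks on phosphorylated cytokine receptors, moved most. Its WT libraries held 1.87, 1.39, 2.22, 1.74 and 3.11 CPM at day 0, then 64.8, 67.2, 27.1, 26.1 and 30.4 CPM at day 2, and 69.2, 163, 66.7, 98.1 and 37.6 CPM at day 5. No library of a later day came near those of day 0, and the day 2 libraries fell into a high pair, replicates 1 and 2, and 3 lower ones. The log2 fold change was 4.36 (SE 0.34, adjusted p = 3.23e-07) from day 0 to day 2 and 5.38 (SE 0.39, adjusted p = 6.01e-08) from day 0 to day 5. Between days 2 and 5 it was 1.02 (SE 0.37, adjusted p = 0.0506), just short of the threshold, and its adjusted p lay between 4.81e-07 and 0.0864 under 5 other settings of the fit.

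*Socs3*, an inhibitor that blocks JAK2 directly, rose in smaller and more even steps. It stood at 2.83, 2.26, 2.00, 1.09 and 1.06 CPM in the WT libraries of day 0, at 8.98, 11.5, 9.01, 9.46 and 8.25 at day 2, and at 30.2, 27.8, 32.5, 28 and 30.2 at day 5. The 3 days did not overlap. Its log2 fold change was 2.34 (SE 0.26, adjusted p = 5.95e-06) by day 2 and 3.99 (SE 0.23, adjusted p = 8.99e-09) by day 5.

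*Pim1* rose in both steps, from 60.4, 51.4, 47.6, 50.4 and 49.8 CPM at day 0 to 283, 303, 164, 144 and 151 at day 2 and 565, 538, 552, 624 and 636 at day 5. The day 5 libraries lay close together, between 538 and 636 CPM, while those of day 2 had a wider range, 144 to 303 CPM, with replicates 1 and 2 on top, as for *Cish*. The log2 fold change to day 5 was 3.49 (SE 0.099, adjusted p = 4.93e-11). *Socs2*, an inhibitor best known for limiting growth hormone receptor signalling, rose by 1.19 (SE 0.16, adjusted p = 2.24e-05), from 17.1 ± 1.91 to 39.0 ± 9.70 CPM (SD, n = 5).

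At the receptor, *Epor* rose from 225 ± 18.8 CPM at day 0 to 327 ± 23.1 at day 2 and 411 ± 68.3 at day 5, a log2 fold change of 0.87 (SE 0.12, adjusted p = 2.42e-05). *Jak2* rose from 282 ± 17.3 to 634 ± 22.8 CPM, a log2 fold change of 1.17 (SE 0.081, adjusted p = 3.92e-08), most of it after day 2. The STAT5 genes went the other way. *Stat5a* stood at 91.3, 80.8, 78.2, 69.8 and 90.6 CPM at day 0, at 47.2, 44.9, 41.8, 51.6 and 53.9 at day 2, and at 19.9, 22.1, 21.8, 18.4 and 35.0 at day 5. It fell at each step with no overlap between days, by 1.81 on the log2 scale in all (SE 0.16, adjusted p = 3.76e-07). *Stat5b*, its neighbour on chromosome 11, fell by 0.35 (SE 0.14, adjusted p = 0.0340), and leaving out any of 5 single libraries ended that call (adjusted p up to 0.0751).

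In the null cells *Pim1*, *Cish*, *Socs3*, *Socs2* and *Jak2* rose, *Stat5a* fell, and neither *Epor* nor *Stat5b* passed. From day 0 to day 5, 7 of 9 members tested passed, 6 higher and 1 lower, against 67.2% of all genes, and the members' median log2 fold change was 0.36 against 0.014 over all genes. Between days 0 and 2 it was 6 of 9, 5 higher and 1 lower, against 43.1%. Between days 2 and 5 it was 3 of 9, 2 higher and 1 lower, against 31.0%. The 6 of days 0 to 2 include *Socs1* (log2 fold change 1.33, SE 0.47, adjusted p = 0.0343), called in 4 of 10 refits without a library. The 5 null libraries of day 2, where it is high, were enough to carry it past the filter, against 3 of 5 at day 0. That call of *Socs1* is given as a description.

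*Pim1* reached a log2 fold change of 3.57 (SE 0.13, adjusted p = 3.53e-12) by day 5 in the null cells, beside 3.49 in WT. *Cish* reached 3.60 (SE 0.30, adjusted p = 2.61e-08), beside 5.38, and *Socs3* 2.39 (SE 0.30, adjusted p = 2.92e-06), beside 3.99. *Jak2* reached 0.32 (SE 0.081, adjusted p = 0.00240), beside 1.17, and *Socs2* 0.36 (SE 0.12, adjusted p = 0.0143), beside 1.19. Both null calls ended when every gene with at least 1 count was fitted (adjusted p = 0.128 and 0.108), and that of *Socs2* also without null replicate 5 of day 5 (adjusted p = 0.0536). *Epor* was 0.11 higher (95% interval -0.19 to 0.41, adjusted p = 0.518), beside 0.87 in WT. *Stat5a* fell by 1.46 (SE 0.085, adjusted p = 5.48e-10), beside 1.81, and *Stat5b* had a difference of 0.054 (95% interval -0.15 to 0.26, adjusted p = 0.631). *Socs1*, the other inhibitor that blocks JAK kinases directly, was tested between these days only in the null cells, at 0.599 ± 0.325 CPM on day 0 and 1.91 ± 0.664 on day 5, a log2 fold change of 1.65 (SE 0.42, adjusted p = 0.00254). It is 1 of the 7 members that passed, but the 5 libraries of day 5, where it is high, were enough to carry it past the filter, against 2 of 5 at day 0 that reached the cutoff, so its call is given as a description.

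**Figure D2:**
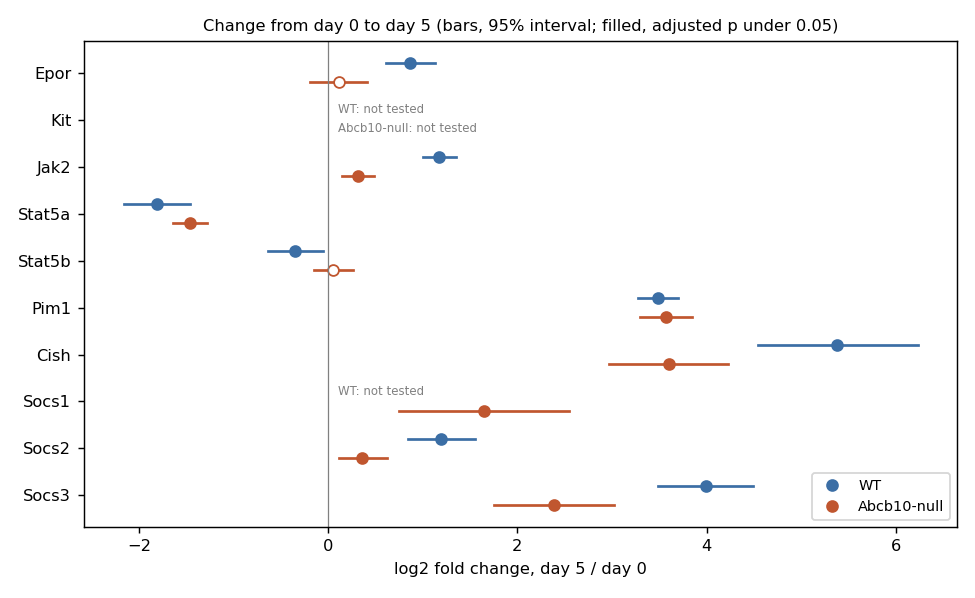
Log2 fold change of each member between days 0 and 5 (x axis) in WT (blue) and Abcb10-null cells (orange), with 95% intervals; filled points passed an adjusted p of 0.05. Pim1 lies at 3.49 and 3.57, while Cish lies at 5.38 in WT and 3.60 in the null cells.

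Whether the change over the days differed between the genotypes was tested by the interaction of genotype and day. From day 0 to day 5, 5 of 9 members passed, all with a smaller rise in the null cells, where 31.5% of all genes passed in either direction. The differences in log2 fold change, null minus WT, were -1.77 for *Cish* (SE 0.52, adjusted p = 0.0116), -1.59 for *Socs3* (SE 0.39, adjusted p = 0.00314), -0.84 for *Jak2* (SE 0.11, adjusted p = 4.51e-06), -0.82 for *Socs2* (SE 0.21, adjusted p = 0.00407) and -0.75 for *Epor* (SE 0.20, adjusted p = 0.00585). These 5 calls were kept in every refit without 1 of the 20 libraries. *Stat5a* and *Stat5b* had differences of 0.36 and 0.41 (adjusted p = 0.141 and 0.0752), and without WT replicate 5 of day 5, which stood apart for both genes, they passed at 0.54 and 0.56 (adjusted p = 0.00321 and 0.00218), making 7 members called, 2 of them in the other direction. The difference for *Pim1* was 0.094, with a 95% interval of -0.23 to 0.42. From day 0 to day 2, 3 of 9 passed, 1 higher and 2 lower, against 22.8% of all genes. They were *Pim1* (1.48, SE 0.48, adjusted p = 0.0308), *Socs3* (-1.34, SE 0.41, adjusted p = 0.0237) and *Socs2* (-0.48, SE 0.17, adjusted p = 0.0421). *Socs3* kept its call in 19 of 20 refits without a library, *Socs2* in 12 and *Pim1* in 7, and *Socs2* kept its call in 2 of the 5 other settings.

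Before DMSO the genotypes already differed in *Jak2* and *Stat5a*, and less firmly in *Stat5b* and *Socs2*. At day 0, 4 of 8 members passed, all higher in the null cells, against 36.0% of all genes, and the members' median log2 fold change was 0.11 against -0.0019 over all genes. The libraries of the genotypes did not overlap for 2 of the 8, *Jak2* and *Stat5a*, against 22.9% of all genes. *Jak2* stood at 406, 404, 348, 415 and 421 CPM in the null libraries and at 279, 260.3, 291, 306 and 273 in WT, a log2 fold change of 0.49 (SE 0.063, adjusted p = 7.39e-06). Even the lowest null library, replicate 3, was above the highest of WT. *Stat5a* stood at 103, 119, 102, 111 and 112 CPM against 91.3, 80.8, 78.2, 69.8 and 90.6, a log2 fold change of 0.41 (SE 0.075, adjusted p = 0.000390).

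The other 2 calls of day 0 were smaller and depended on the fit. *Socs2* was 0.36 higher (SE 0.11, adjusted p = 0.0143), and without WT replicate 3 its adjusted p was 0.0571. *Stat5b* was 0.21 higher (SE 0.080, adjusted p = 0.0474), and it kept its call in 2 of 10 refits without a library. Under the 5 other settings it kept its call in 2, and its adjusted p with DESeq2 was 0.0670. *Epor* did not differ detectably, at 228 ± 22 CPM in null and 225 ± 18.8 in WT (95% interval of the log2 fold change -0.14 to 0.16). *Pim1*, *Cish* and *Socs3* did not pass either, with log2 fold changes of -0.049, -0.25 and -0.051. *Socs1* was under the filter, with 17 counts over the 5 WT libraries and 56 over the 5 null libraries. The *Hdc* transcript, encoding histidine decarboxylase of mast cells and basophils, was also higher in the null cells at this day (185 ± 13.8 against 92.2 ± 3.36 CPM), and its part in these differences was not tested.

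At day 2 *Pim1* and *Socs1* were higher in the null cells and *Cish* and *Socs3* lower, while *Epor*, *Jak2*, *Stat5a*, *Stat5b* and *Socs2* did not pass. Of 9 members 4 passed, 2 higher and 2 lower in the null cells, against 31.8% of all genes, with a median log2 fold change of 0.11 against -0.0022 over all genes. The libraries did not overlap for 1 of the 9, *Socs3*, against 16.1% of all genes. *Socs3* stood at 3.11, 3.57, 3.93, 2.49 and 4.92 CPM in the null libraries, under the WT range of 8.25 to 11.5, a log2 fold change of -1.43 (SE 0.22, adjusted p = 0.00198). *Cish* stood at 16.3, 14.1, 27, 13.4 and 24.9 CPM, a log2 fold change of -1.23 (SE 0.32, adjusted p = 0.0127), and overlapped the 3 lower WT libraries only through null replicate 3.

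*Pim1* was higher in the null cells on average and split them. Its null libraries held 739.7, 118, 772, 934 and 261 CPM, so that replicates 1, 3 and 4 were above all of WT, replicate 5 within the WT range of 144 to 303, and replicate 2 below it. The log2 fold change was 1.37 (SE 0.45, adjusted p = 0.0346), and refits without any of 6 single libraries gave an adjusted p between 0.0651 and 0.0938. *Socs1* followed the same libraries, at 2.29, 0.495, 2.31, 1.40 and 1.04 CPM against 0.514 ± 0.261 in WT (SD, n = 5), a log2 fold change of 1.48 (SE 0.49, adjusted p = 0.0367). Its call was kept in 3 of 10 refits without a library, and it rested on 139 counts in the null cells and 43 in WT, with 4 null and 3 WT libraries reaching the cutoff of the filter.

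Other transcripts split the day 2 libraries in the same places. *Osm*, a cytokine gene raised by STAT5, stood at 87.4, 17.4, 117, 98.8 and 46.8 CPM in the null libraries. *Trib3*, a pseudokinase gene known as a target of the stress factor ATF4, stood at 728, 23.2, 964, 960.0 and 242 CPM there and between 24.9 and 49.9 CPM in WT. Each was lowest in null replicate 2 and next lowest in replicate 5. The late erythroid gene *Slc4a1*, encoding the band 3 anion exchanger, stood at 6.33, 0.446, 4.93, 4.44 and 0.466 CPM in the null libraries and at 14.4, 14.1, 0.934, 1.59 and 2.27 in WT, with the same WT pair on top as for *Cish* and *Pim1*. How far individual cultures had progressed by day 2, and its part in these differences, was not tested. *Cish* and *Socs3* did not follow this split in the null cells.

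**Figure D3:**
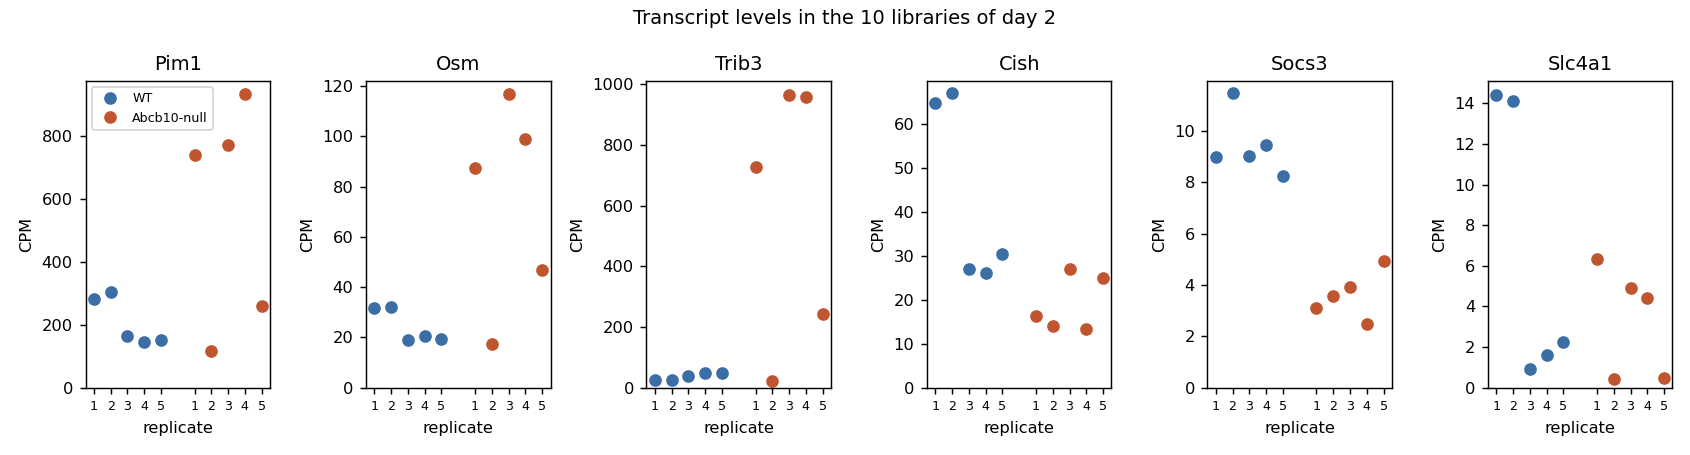
CPM of 3 members (Pim1, Cish, Socs3), of Osm and Trib3, and of the erythroid gene Slc4a1 in the 10 libraries of day 2 (x axis, replicate number; y axis, linear CPM), WT in blue and Abcb10-null in orange. Null replicates 2 and 5 are the lowest of their group for Pim1, Osm, Trib3 and Slc4a1, and Socs3 lies lower in all 5 null libraries than in any of WT.

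At day 5 the receptor, the kinase and 3 inhibitors were lower in the null cells and the transcription factors were higher. Of 9 members 7 passed, 2 higher and 5 lower, against 37.6% of all genes, and the members' median log2 fold change was -0.37 against -0.016 over all genes. The libraries did not overlap for 4 of the 9, *Jak2*, *Stat5a*, *Cish* and *Socs3*, against 23.9% of all genes. *Cish* stood at 35.6, 20, 19.3, 20 and 10.9 CPM in the null libraries, all below the lowest of WT at 37.6, a log2 fold change of -2.05 (SE 0.37, adjusted p = 0.000944) or 4.15-fold lower. *Socs3* stood at 14.2, 8.72, 9.78, 6.33 and 7.64 CPM, against 27.8 to 32.5 in WT, a log2 fold change of -1.67 (SE 0.19, adjusted p = 4.21e-05) or 3.18-fold lower.

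*Epor* stood at 259, 288, 309, 195 and 169 CPM in the null libraries and at 452, 291, 427, 456 and 429 in WT. WT replicate 2 lay among the null libraries and the other 4 above them all, and the log2 fold change was -0.76 (SE 0.17, adjusted p = 0.00430). *Jak2* stood at 496 ± 44.8 against 634 ± 22.8 CPM, a log2 fold change of -0.37 (SE 0.096, adjusted p = 0.00962), and lost its call when every gene with at least 1 count was fitted (adjusted p = 0.169). *Socs2* was 0.48 lower on the log2 scale (SE 0.17, adjusted p = 0.0415), at 28.2 ± 3.62 against 39.0 ± 9.70 CPM, and kept its call in 3 of 10 refits without a library.

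The STAT5 genes, which had fallen in WT, stood higher in the null cells. *Stat5a* was at 36.2, 41.4, 36.4, 38.7 and 45.6 CPM against 19.9, 22.1, 21.8, 18.4 and 35.0 in WT, a log2 fold change of 0.75 (SE 0.16, adjusted p = 0.00334). *Stat5b* was at 117, 126, 123, 108 and 98.8 CPM against 62.5, 64.1, 70.1, 72.8 and 106, a log2 fold change of 0.60 (SE 0.14, adjusted p = 0.00494). WT replicate 5 stood apart from its group for both genes and also in *Slc4a1*, at 253 CPM against 500.1 to 652 in the other 4, and in *Trib3*, at 429.7 CPM against 18 to 31.5. Without it the difference was 0.93 for *Stat5a* and 0.74 for *Stat5b*. *Stat5a* had fallen in the null cells too, by 1.46 on the log2 scale, and had been 0.41 higher there at day 0. The interaction of genotype and day, day 5 against day 0, passed for neither gene in the main fit (adjusted p = 0.141 and 0.0752).

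*Pim1*, at 597 ± 111 CPM in the null cells and 583 ± 44.1 in WT, differed by 0.026 (95% interval -0.25 to 0.30). *Socs1* was 0.96 higher (95% interval 0.11 to 1.81), with an adjusted p of 0.0703. Erythroid markers moved with these differences: their summed CPM lay between 5929 and 7516 in the null libraries and between 11364 and 23304 in WT at day 5, with all 8 genes above 3 counts in every library of both groups. Their part in the differences was not tested.

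**Figure D4:**
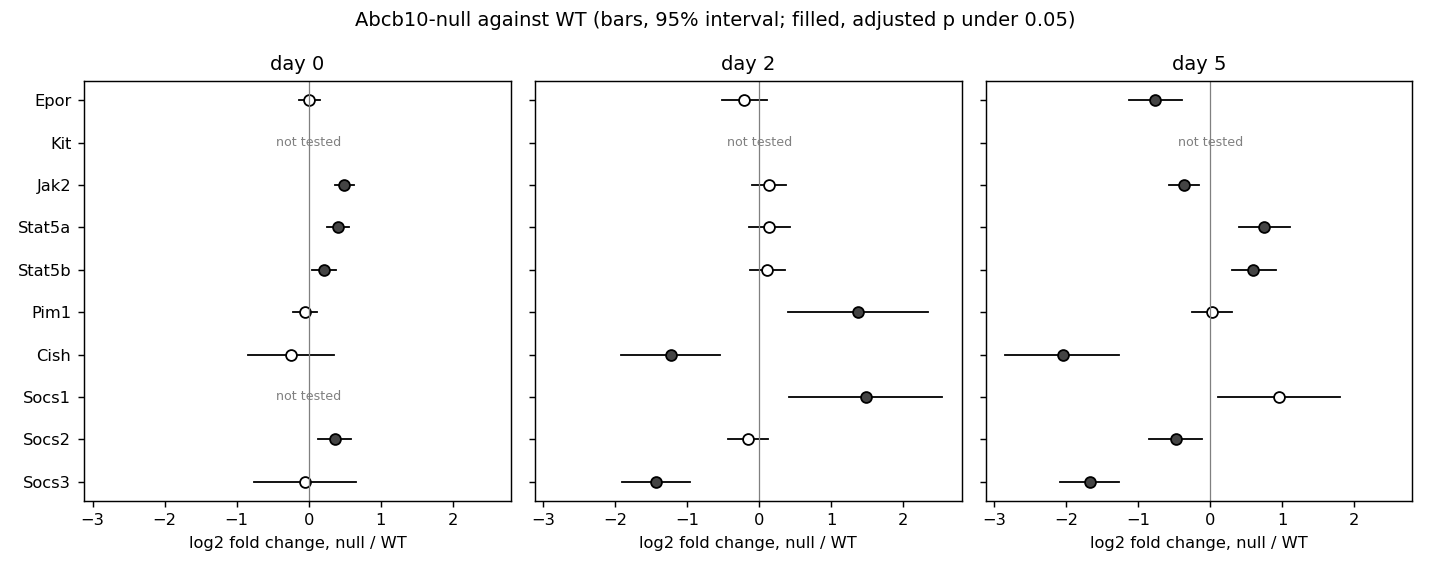
Log2 fold change of each member in Abcb10-null against WT cells (x axis, shared scale) at days 0, 2 and 5, with 95% intervals; filled points passed an adjusted p of 0.05. Cish and Socs3 are lower by 1.23 and 1.43 at day 2 and by 2.05 and 1.67 at day 5, and Jak2 is higher at day 0 and lower at day 5.

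Reads from a gene on the opposite strand could count for 3 of these members, since the strand setting of the counting is not given in the sources used here. Of the exon length of *Pim1*, 14.5% lay over *Gm26885* on the other strand, and of *Cish* 11.5% over *Gm17040* and *Gm17041*. None of these 3 opposite genes exceeded 2.46 CPM in any library. *Stat5a* shared 1.01% of its exon length with the protein-coding gene *Stat3* on the other strand, which lay between 22.1 and 64.6 CPM, and how many of its reads fell in the shared part was not tested.

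*Epor* had the pattern over the 30 libraries most like those of *Rhd*, a blood group antigen gene (Pearson's r 0.858), *Plek2* (0.849), *Pheta2* (0.848), *Urod*, an enzyme of heme synthesis (0.845), and *Pigq* (0.843), among 12144 genes with a mean of at least 1 CPM. These correlations of log2 CPM describe the 30 libraries, which fall into 6 groups and share their depth scaling. *Kit* had too few counts for a pattern to be given.

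The wider pathway was described with 67 other genes: the 2 ligands, receptor chains, tyrosine kinases, adaptors, the PI3K-AKT and RAS-MAPK arms, further inhibitors, and STAT partners and targets. Between genotypes, 24 of 64 tested passed at day 0 (15 higher in the null cells, 9 lower), 23 of 65 at day 2 (11 higher, 12 lower) and 29 of 65 at day 5 (17 higher, 12 lower), which is 37.5%, 35.4% and 44.6%, beside 36.0%, 31.8% and 37.6% of all genes. Their median log2 fold changes were 0.035, 0.0071 and -0.064.

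Among the tyrosine kinases, 2 of 7 passed at each day, 28.6% beside 36.0%, 31.8% and 37.6% of all genes. *Fyn*, a Src family kinase, was higher in the null cells at all 3 days, by 1.17, 0.96 and 1.51 on the log2 scale (SE 0.073, 0.11 and 0.12). Its libraries did not overlap at any day, with WT between 17.9 and 25.9 CPM and null between 43.1 and 64.1 CPM over all days. *Tec* was 1.58 higher at day 0 (SE 0.078, adjusted p = 1.15e-11), and *Jak3*, which serves lymphoid cytokine receptors, was 1.59 lower at day 2 (SE 0.38, adjusted p = 0.00937).

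Of 3 receptor chains, 2 passed at day 0, and 0 at days 2 and 5 with edgeR (0 and 1 at an unadjusted p under 0.05, and 0 and 0 with DESeq2). The 2 of day 0 are 66.7% of the chains, and 36.0%, 31.8% and 37.6% of all genes passed at days 0, 2 and 5. With all 30 libraries in 1 fit, 0 chains passed at day 0 and 2 at day 5. With every gene with at least 1 count, 2 chains passed at day 5. *Csf2rb* and *Csf2rb2*, encoding the shared chain of the interleukin 3 and granulocyte-macrophage receptors and its near-identical copy, were 0.74 (SE 0.099) and 1.28 (SE 0.26) higher in the null cells at day 0. Reads may be split between this pair, so the values of each are uncertain. Of 12 adaptors, 3, 1 and 5 passed at days 0, 2 and 5, among them *Crkl* at day 0 (-0.41, SE 0.13) and *Irs2* at day 5 (-0.88, SE 0.21).

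In the PI3K-AKT arm, 2, 4 and 5 of 7 genes passed at days 0, 2 and 5. That is 28.6%, 57.1% and 71.4%, beside 36.0%, 31.8% and 37.6% of all genes. *Foxo3*, a transcription factor that AKT keeps out of the nucleus, was 1.09 lower at day 5 (SE 0.29, adjusted p = 0.0106), and *Pik3r1*, the regulatory subunit, 0.52 higher at day 0 (SE 0.079). In the RAS-MAPK arm, 4 of 11 genes tested passed at day 0, 6 of 12 at day 2 and 5 of 12 at day 5. *Dusp6*, the phosphatase that ERK induces against itself, was higher in the null cells at day 2, at 3.67 ± 0.662 against 1.09 ± 0.315 CPM (log2 fold change 1.69, SE 0.30, adjusted p = 0.00315). At day 5 it was 1.45 higher (SE 0.28, adjusted p = 0.00154). *Spry1*, another ERK feedback inhibitor, was 1.09 higher at day 2 (SE 0.37, adjusted p = 0.0391).

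Of 13 further inhibitors, 5 passed at each day, 38.5% beside 36.0%, 31.8% and 37.6% of all genes. *Cblb*, a ubiquitin ligase of receptors and kinases, was lower in the null cells by 1.63 at day 2 (SE 0.52) and 2.05 at day 5 (SE 0.43, adjusted p = 0.00252). *Pias3*, a STAT inhibitor, was 1.31 lower at day 2 (SE 0.23), and *Ptprc*, the phosphatase CD45, 1.6 higher at day 5 (SE 0.15, adjusted p = 1.03e-05).

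STAT partners and STAT5 targets passed for 6, 5 and 7 of 11 genes at days 0, 2 and 5, in both directions. That is 54.5%, 45.5% and 63.6%, beside 36.0%, 31.8% and 37.6% of all genes. *Erfe*, the erythroid hormone that lowers hepcidin, is a target of erythropoietin signalling in erythroblasts, and stood at 5.37, 10.8, 6.33, 4.15 and 6.48 CPM in the null libraries of day 5 against 27.3, 44.3, 23, 26.3 and 13.7 in WT (-2.03, SE 0.31, adjusted p = 0.000323). Every null library was below every WT library. *Bcl2l1*, encoding the survival protein BCL-XL, was 1.31 lower at day 2 (SE 0.39), while *Osm* was 1.52 higher at that day (SE 0.39).

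*Id1*, which STAT5 can raise, was 1.05 lower at day 0 (SE 0.12) and 1.39 higher at day 5 (SE 0.27). *Ccnd2* and *Myc*, genes of cell division, were 0.41 (SE 0.087) and 0.39 (SE 0.11) lower at day 0. *Trib3* was 0.60 lower at day 0 (SE 0.074), 3.91 higher at day 2 (SE 0.70, adjusted p = 0.00324) and 3.07 higher at day 5 (SE 0.79, adjusted p = 0.00894), with the split between libraries given above.

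**Figure D5:**
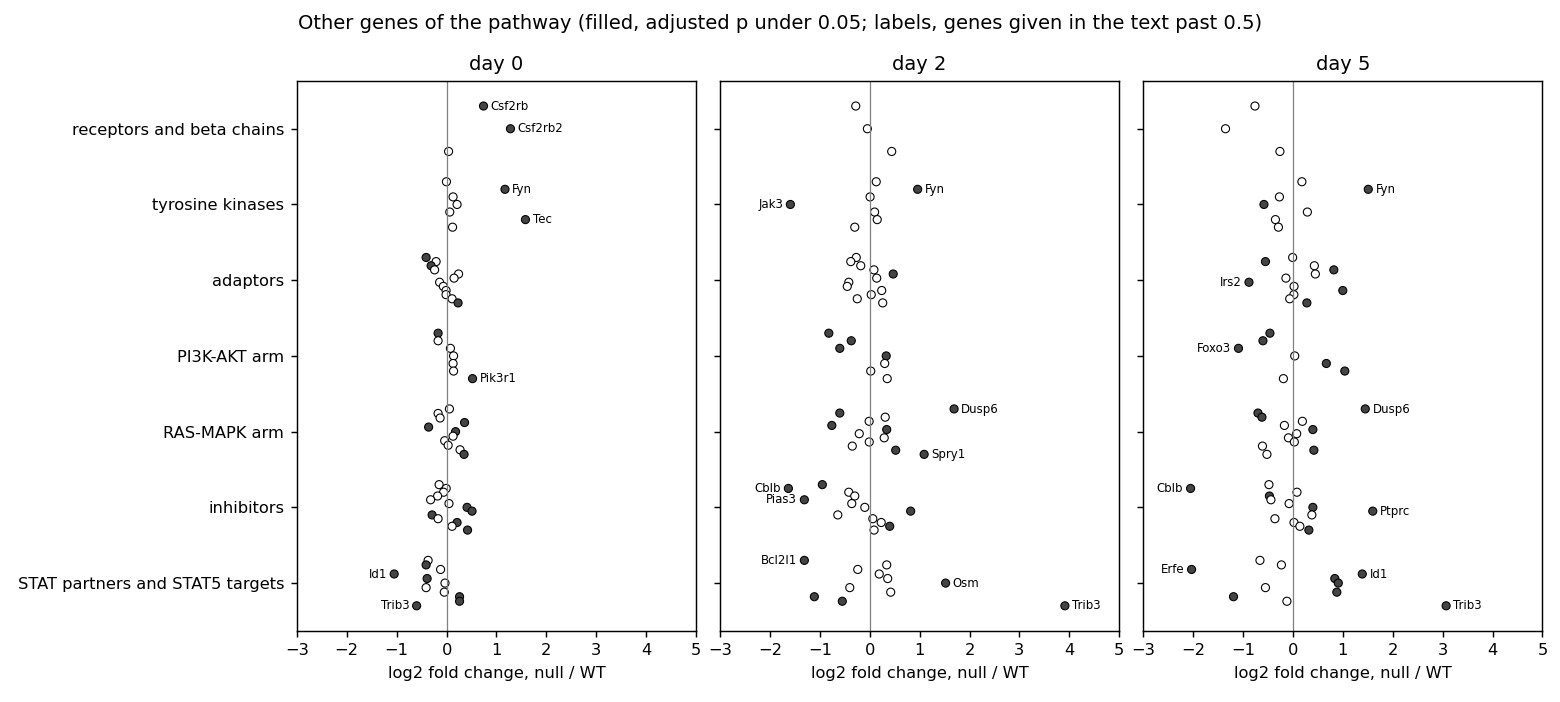
Log2 fold change in Abcb10-null against WT cells (x axis) of the tested genes of the wider pathway, by list (rows; vertical spread within a row has no meaning), at days 0, 2 and 5; filled points passed an adjusted p of 0.05. Trib3 lies at 3.91 and 3.07 at days 2 and 5, and Fyn lies to the right of 0 at all 3 days.

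Of the 67 genes, 49 of 65 tested passed between days 0 and 5 in WT (29 higher, 20 lower) and 46 of 65 in the null cells (29 higher, 17 lower), which is 75.4% and 70.8%, close to the 71.2% and 67.2% of all genes. The interaction of genotype and day passed for 26 of 65 at day 5, 40.0% beside 31.5% of all genes, and for 15 of 65 at day 2, 23.1% beside 22.8%.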

How the data were processed

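The 30 RNA-seq libraries cover both genotypes at each of 3 days, with 1.5% DMSO from day 0. Before making stranded libraries, the authors depleted ribosomal and globin transcripts. Reads were trimmed (cutadapt) and aligned to GRCm38 by STAR 2.6.1b, and featureCounts 1.6.3 counted them per Ensembl gene. Both versions are those of the submitters' processing notes. The deposited values are raw counts per gene. How the counting treated strand and reads with several matches is not given in the sources used here. Of 54532 genes 9219 had no count, and 37 identifiers, with 0.0116% of the counts, were not in the GENCODE annotation of the same build used here for symbols and exon lengths.

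Groups were taken from the sample labels, and library totals ranged from 9906783 to 20157768 counts. Counts were tested in R 4.3.3 with edgeR 4.0.16 (TMM, filterByExpr, glmQLFit, glmQLFTest), using only the libraries of the groups compared, and p-values were adjusted by Benjamini-Hochberg over every gene in the fit, with 0.05 as threshold. Differences over the days that share control libraries were not compared with each other except by the interaction of genotype and day. Standard errors and 95% intervals come from the F statistic of each test. A count of 3 was taken as the floor. CPM values use TMM-scaled totals over 14702 genes, and log2 CPM for patterns a prior count of 2. The fits were also run on simulated counts in which only a small part of the genes changed. Their error rates with as many changed genes as in these data were therefore not checked. Replicates of a group differed by more than counting error (lowest chi-square per degree of freedom 6.18), and p-values measure the spread between these libraries.

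The 10 members, the 67 pathway genes and the marker lists were chosen with earlier results of these data known. Named genes were all members, pathway genes at 3 counts or less in all libraries, up to 5 most higher and 5 most lower pathway genes past the threshold in each comparison of genotypes, and the 5 genes most like *Epor*. Genes most like *Kit* are left out for its low counts. A gene that this rule names is not reported here, but it stays in the counts of its list. *Kitl*, *Hdc*, *Tpsb2*, *Fcer1a*, *Cpa3*, *Ms4a2*, *Slc4a1* and the opposite-strand genes were named after their values were seen. Alternatives were DESeq2 1.42.0, its size factors in edgeR, all genes with at least 1 count, all 30 libraries in 1 fit, the replicate number as a block, and leaving out each library in turn.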

Additional observations from a re-analysis of the deposited data

Results flagged for a closer look

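A single library stood apart in 6 of the 60 combinations of member and group, by the gap to its nearest neighbour over the range of the group (Dixon's test); chance gives about 1 in 20. *Epor* was at 291 CPM in WT replicate 2 of day 5, where the other 4 lay between 427 and 456, and *Jak2* at 348 CPM in null replicate 3 of day 0, where the others lay between 404 and 421. *Kit* was at 2.70 CPM in null replicate 4 of day 5, against at most 0.540 in the others. *Stat5a* was at 35.0 CPM and *Stat5b* at 106 CPM in WT replicate 5 of day 5, against 18.4 to 22.1 and 62.5 to 72.8. *Socs2* was at 28.1 CPM in WT replicate 3 of day 2, against 20.8 to 22.4.

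The change over the days differed between the genotypes by the interaction test for 8 results. From day 0 to day 2 the difference in log2 fold change, null minus WT, was 1.48 for *Pim1*, -0.48 for *Socs2* and -1.34 for *Socs3*. From day 0 to day 5 it was -0.75 for *Epor*, -0.84 for *Jak2*, -1.77 for *Cish*, -0.82 for *Socs2* and -1.59 for *Socs3*.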

How the results depend on the processing

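Of 59 member calls over the 11 comparisons, 43 were kept under the 5 other settings and in every refit without a library. Under other settings, 451 of 480 member values kept their direction and side of the threshold, 16 lost a call, 9 gained one and 4 reversed, none of these 4 called: *Epor* at day 0 (-0.00044 with DESeq2 and -0.0048 with its size factors), *Stat5b* in null from day 0 to day 5 (-0.036 with all genes with at least 1 count) and *Socs1* in the interaction at day 2 (-0.080 with the replicate block). With all 30 libraries in 1 fit, 2 members were called between genotypes at day 0 in place of 4, and 1584 genes in place of 4642; the cause was not tested.

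With 1 library left out, members called between genotypes numbered 2 to 4 at both day 0 and day 2, those called between days 0 and 2 in null 3 to 6, and those of the day 2 interaction 1 to 4. The lowest came without WT replicate 3 at day 0, and without null replicate 5 of day 0 for the null cells. At day 2 it came without WT replicate 3, 4 or 5 or null replicate 1, 3 or 4, and for the interaction without null replicate 4 or 5 of day 0, WT replicate 3 of day 2 or null replicate 1 or 4 of day 2. Genes called at day 2 fell from 4151 to 2744 without WT replicate 2 and to 2665 without null replicate 1. Log2 fold changes that changed sign in such refits, none of them called, ranged from -0.050 to 0.039 for *Epor* and -0.29 to 0.14 for *Socs3* between genotypes at day 0, from -0.079 to 0.099 for *Pim1* at day 5, from -0.11 to 0.048 for *Stat5b* between days 0 and 2 in WT, and from -0.77 to 0.37 for *Socs1* in the interaction at day 2. In the null cells they ranged from -0.071 to 0.051 for *Socs2* between days 0 and 2, from -0.18 to 0.34 for *Pim1* and -0.13 to 0.30 for *Cish* between days 2 and 5, and from -0.0081 to 0.092 for *Stat5b* between days 0 and 5.

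Correlations were computed between libraries with the same replicate number, on their deviations from the group means. Of 75 such pairs, 8 had a correlation above 0.1, with a median of -0.014 and a range of -0.26 to 0.43. Pairs with different numbers were not examined, so there is no reference by which these values could show or exclude a pairing. The number was not taken as a pairing in the main fits. With the replicate block, *Pim1* at day 2 (1.17, adjusted p = 0.0771) and *Socs2* at day 5 (-0.45, adjusted p = 0.0836) between genotypes lost their calls, as did *Epor* between days 0 and 2 (0.37, adjusted p = 0.0581) and *Socs2* between days 2 and 5 (0.40, adjusted p = 0.0661) in null and *Socs2* in the interaction at day 2 (-0.46, adjusted p = 0.0643), while *Cish* between days 2 and 5 in WT gained one (0.98, adjusted p = 0.00754). Depth limits *Kit* and *Socs1* most, since 3 counts were worth up to 0.311 CPM.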
